A study of Rattus norvegicus with 12 samples.

Results

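The mitochondrial ribosomal protein genes described here are the 70 genes of the deposited expression table whose symbol starts with Mrpl or Mrps followed by a number. They are 70 of 14636 genes in all, 42 with a large subunit symbol (Mrpl) and 28 with a small subunit symbol (Mrps). The 12 RNA libraries came from hearts of Sprague Dawley rats at 2 days of age, cardiomyocytes and cardiac fibroblasts parted on a Percoll gradient and grown with 15% serum. CM_yap and CF_yap are cardiomyocytes and fibroblasts given a mix of 2 siRNAs against Yap at 25 nM each, and CM_neg and CF_neg are the same cell types given a universal negative control siRNA. Every group had 3 libraries, transfected 16 h after plating and collected 48 h later. The labels name no engineered allele, and whether the 3 libraries per group represent separate litters or cultures is not stated in the labels.

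Mitochondria carry their own ribosome, the mitoribosome, which translates only the few messenger RNAs encoded in mitochondrial DNA, core subunits of the respiratory chain. All of its proteins are encoded in the nucleus, made in the cytosol and imported, and they assemble with the mitochondrial ribosomal RNAs into a large subunit, which joins amino acids, and a small subunit, which decodes the message. Some of them descend from bacterial ribosomal proteins, and the others are particular to mitochondria. Heart muscle is rich in mitochondria. Yap is a transcriptional coactivator of the Hippo pathway that acts with the TEAD factors.

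The symbol is not always the place of the protein. Mrps18a and Mrps30 encode proteins that sit in the large subunit, and Mrps36, which RefSeq names Kgd4, encodes a protein of the alpha-ketoglutarate dehydrogenase complex. Another 3 genes, written mrpl9, mrpl11 and mrpl24 in lower case, fall outside the rule and are given apart. The table lists 0 mitochondrially encoded genes, so the messenger RNAs that the mitoribosome translates were not analysed here.

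Promoter windows from RefSeq (GRCr8; 250 bases before to 50 after the annotated start, 300 in all) were found for 56 of the 70 genes. Windows are shown for the largest rises with Yap siRNA in cardiomyocytes (Mrpl57, Mrpl34), for the largest falls there with a window (Mrps2, Mrps27), and for the genes at both ends of the difference between the cell types (Mrps36, Mrpl52). They lie at chr15:36086207-36086506 (plus strand), chr16:18186197-18186496 (plus strand), chr3:32200827-32201126 (plus strand), chr2:32473954-32474253 (plus strand), chr2:33612348-33612647 (minus strand) and chr15:31852686-31852985 (plus strand), and each is written 5′ to 3′ along its gene. Capitals mark the letters CCGGAAG, bound by ETS factors such as GABP, or AAGATGGC, bound by YY1, on either strand.
Mrpl57: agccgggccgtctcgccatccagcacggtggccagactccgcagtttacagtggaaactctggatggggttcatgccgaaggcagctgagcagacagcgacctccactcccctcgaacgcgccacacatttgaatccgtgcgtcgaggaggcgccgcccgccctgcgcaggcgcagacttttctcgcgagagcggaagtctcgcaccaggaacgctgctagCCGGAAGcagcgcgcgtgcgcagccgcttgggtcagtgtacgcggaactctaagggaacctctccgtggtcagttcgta
Mrpl34: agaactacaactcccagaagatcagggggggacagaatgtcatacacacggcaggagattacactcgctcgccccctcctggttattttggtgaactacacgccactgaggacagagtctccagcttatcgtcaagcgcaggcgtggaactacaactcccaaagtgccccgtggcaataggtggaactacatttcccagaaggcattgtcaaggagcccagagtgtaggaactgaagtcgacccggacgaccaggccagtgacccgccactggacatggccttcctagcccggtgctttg
Mrps2: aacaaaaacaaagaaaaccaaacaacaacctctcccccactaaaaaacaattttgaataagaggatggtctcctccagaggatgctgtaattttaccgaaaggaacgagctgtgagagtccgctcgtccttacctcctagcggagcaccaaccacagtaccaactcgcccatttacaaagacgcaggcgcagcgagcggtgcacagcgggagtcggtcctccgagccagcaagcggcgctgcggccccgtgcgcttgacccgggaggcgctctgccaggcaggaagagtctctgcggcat
Mrps27: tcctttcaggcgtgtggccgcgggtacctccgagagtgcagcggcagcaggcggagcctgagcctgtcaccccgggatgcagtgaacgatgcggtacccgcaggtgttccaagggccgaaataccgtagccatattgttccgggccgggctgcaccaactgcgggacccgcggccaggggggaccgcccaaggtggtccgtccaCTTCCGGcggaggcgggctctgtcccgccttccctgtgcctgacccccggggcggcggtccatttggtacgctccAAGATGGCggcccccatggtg
Mrps36: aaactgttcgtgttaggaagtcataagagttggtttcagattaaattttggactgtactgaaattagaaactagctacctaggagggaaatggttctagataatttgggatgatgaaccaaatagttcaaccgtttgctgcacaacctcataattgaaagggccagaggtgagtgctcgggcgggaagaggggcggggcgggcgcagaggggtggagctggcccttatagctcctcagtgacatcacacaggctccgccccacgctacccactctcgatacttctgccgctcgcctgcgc
Mrpl52: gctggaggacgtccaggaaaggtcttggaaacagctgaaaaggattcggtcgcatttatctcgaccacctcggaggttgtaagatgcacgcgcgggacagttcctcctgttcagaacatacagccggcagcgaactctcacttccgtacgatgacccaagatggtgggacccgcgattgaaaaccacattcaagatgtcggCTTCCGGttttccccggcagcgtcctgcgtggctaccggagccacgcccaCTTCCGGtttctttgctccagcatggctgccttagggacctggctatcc
Mrps27 held both sets of letters, Mrpl57 1 ETS match, Mrpl52 the ETS letters on the opposite strand at 2 places, and Mrpl34, Mrps2 and Mrps36 neither. The ETS letters stood in 9 of 22 windows of members that rose in cardiomyocytes, 2 of 5 that fell and 8 of 29 not called, and the YY1 letters in 2, 3 and 9 of these. No test compared these counts.

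Over the 56 windows, 19 (33.9%) held CCGGAAG, against 18.2% of the windows of 9171 tested genes and 8.75% of all 33469 windows. AAGATGGC stood in 14 (25.0%), against 5.62% of tested genes and 3.17% of all windows. In 11 of these 14 windows (78.6%) a match began at or after the annotated start, against 51.3% of tested genes with the letters. CACGTG, the E-box, stood in 6 windows (10.7%), against 9.62% of tested genes and 6.42% of all. GGAATG, bound by TEAD factors, stood in 4 (7.14%), against 11.3% of tested genes and 14.2% of all. For NRF1, a regulator of mitochondrial genes, the letters CGCATGCG stood in 6 windows (10.7%), against 3.67% of tested genes and 1.66% of all. A longer NRF1 form (GCGC, any base, TGCGC), searched first, stood in 9 (16.1%), against 10.2% and 4.25%. By call in cardiomyocytes, CGCATGCG stood in 0 of 22 windows of members that rose, 1 of 5 that fell and 5 of 29 not called. In the same order, the longer form stood in 4, 1 and 4 windows, CACGTG in 2, 0 and 4, and GGAATG in 1, 0 and 3. These counts were not tested either. None of the first 5 sets of letters overlapped another in a member's window, 6 windows held both ETS and YY1 letters, and 23 held none of the 5. The median GC content was 56.0% in members, 61.0% in tested genes and 51.7% in all windows. A match is a run of letters, not a measured binding site.

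FPKM is the number of fragments scaled by transcript length and by the total mapped, and no read counts were analysed here, so the depth is unknown. Library totals lay between 563193.5 and 620119.3 FPKM, and libraries of a group correlated at 0.989 to 0.992 (Spearman, across genes). Yap1 stood at 5.9, 4.43 and 6.0 FPKM in CM_yap against 55.26, 60.8 and 63.11 FPKM in CM_neg. Its CF_yap values were 4.45, 3.88 and 4.49 FPKM, those in CF_neg 35.42, 37.39 and 33.45 FPKM. The means with Yap siRNA were 9.1% of control in cardiomyocytes and 12.1% in fibroblasts. Summed markers matched the labelled cell types, with 7 of 8 cardiomyocyte genes in the table, at 27978 to 31388 FPKM in CM_yap, 16729 to 19657 in CM_neg, 599 to 694 in CF_yap and 719 to 755 in CF_neg. The 8 fibroblast genes summed to 379 to 468 FPKM in CM_yap, 335 to 491 in CM_neg, 17462 to 17662 in CF_yap and 16639 to 17612 in CF_neg.

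All 70 members passed the filter of a mean of 0.5 FPKM. Per library, the large subunit genes summed to 2805.52, 2811.11 and 2585.29 FPKM in CM_yap and to 2366.64, 2292.36 and 2418.6 FPKM in CM_neg. They summed to 1629.15, 1699.84 and 1594.76 FPKM in CF_yap and to 1617.4, 1638.79 and 1747.86 FPKM in CF_neg. The cardiomyocyte groups did not overlap and the fibroblast groups did. The small subunit genes summed to 1695.98, 1694.47 and 1578.4 FPKM in CM_yap and to 1463.64, 1423.43 and 1495.56 FPKM in CM_neg. They summed to 901.4, 889.61 and 861.42 FPKM in CF_yap and to 889.41, 913.98 and 963.87 FPKM in CF_neg. Here too only the cardiomyocyte groups stood apart. Library totals also differed, with 595605.0 to 620119.3 FPKM in CM_yap and 573429.8 to 585883.5 in CM_neg. As a share of the total, the large subunit genes took 0.434 to 0.462% in CM_yap and 0.400 to 0.418% in CM_neg.

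**Figure D1:**
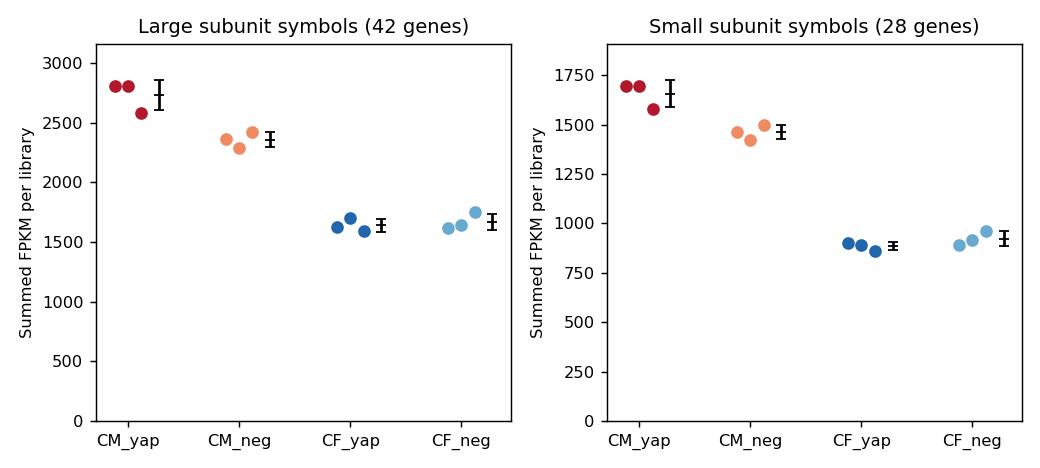
Summed FPKM of the 42 large subunit genes (left) and the 28 small subunit genes (right) in each library (points), with the mean and SD of 3 libraries beside them. Both sums are higher in every CM_yap library than in any CM_neg library, the fibroblast groups overlap, and both cardiomyocyte groups lie above both fibroblast groups.

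Levels of single members spread widely around these sums. Group means of large subunit genes ran from 14.1 to 196 FPKM in CM_yap (median 56.3), from 16.1 to 177 in CM_neg (median 48.5), from 7.08 to 154 in CF_yap (median 29.8) and from 8.21 to 152 in CF_neg (median 30.7). Over the 12 libraries Mrpl17, Mrpl54, Mrpl13, Mrps21 and Mrpl57 had the highest means, 158, 139, 115, 112 and 100.1 FPKM. Mrps28, Mrpl50 and Mrpl40 had the lowest, 8.31, 11.4 and 17.7 FPKM. The coefficient of variation among 3 libraries had a median over members of 8.09% in CM_yap, 5.66% in CM_neg, 6.15% in CF_yap and 6.40% in CF_neg.

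The first comparison asked which members changed with Yap siRNA in cardiomyocytes. Of 70 genes, 26 rose and 7 fell, and 37 did not pass the test (limma on log2(FPKM + 1), Benjamini-Hochberg adjusted p under 0.05 over all genes tested). Of all 11302 genes tested, 21.0% rose and 28.7% fell. Among the large subunit genes 14 of 42 rose and 2 fell, and among the small subunit genes 12 of 28 rose and 5 fell. The median log2 fold change was 0.11 over members (0.09 large, 0.11 small) and −0.06 over all genes tested. Of all calls, 42.3% were higher in CM_yap, against 53.0% with median-of-ratios and 47.5% with quantile scaling, and the member counts were then 30 rises with 5 falls and 27 rises with 7 falls.

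Other values moved with this comparison. The summed cardiomyocyte markers were higher in CM_yap than in CM_neg, as given above, with 6 of 7 called higher and 1 lower. The ranges of the summed fibroblast markers overlapped, but 3 of 8 were called higher (median log2 fold change 0.14). None of these 8 was called lower (limma; 1 was lower at an unadjusted p under 0.05). The 8 endothelial markers, none at 0, summed to 234 to 271 FPKM in CM_yap and 286 to 338 in CM_neg. Of these, 1 rose and 4 fell. The 6 leukocyte markers summed to 107 to 151 FPKM in CM_yap and 113 to 145 in CM_neg. These sums overlapped, but 1 of the 6 rose and 3 fell (median log2 fold change −0.34). The 5 smooth muscle markers (Myh11, Cnn1, Smtn, Lmod1 and Des) summed to 754 to 821 FPKM in CM_yap and 725 to 755 in CM_neg. Of these, 2 rose and 1 fell. Against CF_neg, 4 of the 5 were lower in CM_neg and 1 higher (log2 fold change 4.20), so the sum need not follow the whole list. The 3 erythroid markers summed to 31.1 to 55.8 FPKM in CM_yap and 57.2 to 72.0 in CM_neg. In bulk RNA, fewer cells of a type and less RNA per cell cannot be told apart. The part of cell makeup and of the library totals in the member changes was not tested.

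The largest rise was that of Mrpl57, a protein of the large subunit with no bacterial counterpart. It stood at 193.93, 219.36 and 154.89 FPKM in CM_yap against 73.34, 82.61 and 89.12 FPKM in CM_neg. All 3 CM_yap libraries lay far above the control ones (log2 fold change 1.19 ± 0.12 SE, adjusted p = 2.14e-06). In RefSeq it overlaps Ska3 on the opposite strand, at 5.70 FPKM in CM_yap and 11.3 FPKM in CM_neg on average, and whether counting used strand is not given in the sources used here. Mrpl34, a large subunit protein with a bacterial counterpart, stood at 46.88, 34.56 and 40.24 FPKM in CM_yap against 20.99, 23.03 and 22.5 FPKM in CM_neg (0.83 ± 0.10, adjusted p = 1.35e-05). Its lowest CM_yap library was above its highest CM_neg library.

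Further large subunit genes rose less. Mrpl30 stood at 60.14, 63.56 and 47.73 FPKM in CM_yap against 36.5, 34.57 and 40.15 FPKM in CM_neg (0.60 ± 0.11, adjusted p = 0.000297). Mrpl54, near the stalk that recruits translation factors, stood at 190.82, 213.04 and 184.01 FPKM in CM_yap against 134.42, 133.2 and 136.83 FPKM in CM_neg (0.53 ± 0.08, adjusted p = 4.58e-05). Mrpl14, with a bacterial counterpart, stood at 67.77, 66.2 and 78.16 FPKM in CM_yap against 45.17, 48.91 and 51.46 FPKM in CM_neg (0.53 ± 0.11, adjusted p = 0.000804). In none of these did the groups overlap. The other 9 large subunit rises ran from 0.25 in Mrpl53 to 0.49 in Mrpl21, with Mrpl13, Mrpl15, Mrpl40, Mrpl41, Mrpl48, Mrpl52 and Mrpl55 between them. Of these, Mrpl40 lost its call in 4 leave-one-out fits (adjusted p of 0.0551 to 0.0942), and Mrpl48 overlaps Rab6a, which fell (−0.61), on the opposite strand. The Mrpl55 groups overlapped, with 34.21 FPKM in CM_yap 3 and 34.69 in CM_neg 1, and its call was not followed setting by setting.

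Among the small subunit genes Mrps28, the least abundant member, had the largest fold change. It stood at 11.28, 15.45 and 10.41 FPKM in CM_yap against 10.09, 5.47 and 8.16 FPKM in CM_neg (0.60 ± 0.17, adjusted p = 0.00941). The gap between the groups was small, and dropping either CM_neg 2 (adjusted p = 0.055) or CM_yap 2 (0.0534) ended the call (0.00242 to 0.055 over all settings). Mrps11, Mrps25, Mrps18a, Mrps36, Mrps33 and Mrps21 rose by 0.41 to 0.50, and Mrps23, Mrps26, Mrps31, Mrps5 and Mrps15 by 0.22 to 0.33. The Mrps31 groups overlapped, with 35.81 FPKM in CM_yap 3 and 36.31 in CM_neg 2, and its call was not followed setting by setting. Mrps25, a protein found only in mitochondrial ribosomes, stood at 108.88, 109.65 and 101.84 FPKM in CM_yap against 78.02, 74.68 and 76.57 FPKM in CM_neg (0.48 ± 0.06, adjusted p = 2.43e-05). Mrps18a, of the large subunit despite its symbol, averaged 122 ± 6.34 FPKM in CM_yap and 88.5 ± 5.71 FPKM in CM_neg (SD, n = 3; 0.46 ± 0.07, limma adjusted p = 0.000119). Mrps30, the other such protein, averaged 39.7 ± 1.41 FPKM in CM_yap and 41.2 ± 0.26 FPKM in CM_neg (SD, n = 3; −0.05 ± 0.06, limma adjusted p = 0.54).

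The 7 falls were modest, and 5 of them were small subunit genes. Mrps24 stood at 30.09, 26.2 and 35.78 FPKM in CM_yap against 42.1, 37.79 and 40.49 FPKM in CM_neg (−0.39 ± 0.10, adjusted p = 0.00373). Mrps2 stood at 34.82, 31.27 and 33.32 FPKM in CM_yap against 43.68, 41.84 and 41.9 FPKM in CM_neg (−0.35 ± 0.07, adjusted p = 0.000501). Both have bacterial counterparts, and in both every CM_yap library was lower than every CM_neg library. Mrps27, a pentatricopeptide repeat protein, stood at 21.21, 22.94 and 25.06 FPKM in CM_yap against 30.74, 27.61 and 28.77 FPKM in CM_neg (−0.32 ± 0.09, adjusted p = 0.00604). Mrps10 stood at 49.46, 53.97 and 51.8 FPKM in CM_yap against 68.25, 60.21 and 64.32 FPKM in CM_neg (−0.31 ± 0.10, adjusted p = 0.0159). It no longer passed with median-of-ratios scaling (adjusted p = 0.0731), without CM_neg 1 (0.0672) and without CM_yap 1 (0.0546), and ranged from 0.00223 to 0.0731 over all settings. Mrps12, whose bacterial counterpart lies at the decoding centre, stood at 31.18, 27.3 and 31.2 FPKM in CM_yap against 36.09, 40.86 and 32.1 FPKM in CM_neg (−0.27 ± 0.09, adjusted p = 0.0278). Its groups were close, and the call was lost in 5 of 21 settings (adjusted p of 0.0583 to 0.145).

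In the large subunit Mrpl49 and Mrpl17 fell. Mrpl49 stood at 58.92, 60.76 and 52.45 FPKM in CM_yap against 66.79, 70.93 and 73.42 FPKM in CM_neg (−0.29 ± 0.07, adjusted p = 0.00333). It overlaps Syvn1, which rose (0.52), on the opposite strand. Mrpl27, Mrpl37, Mrpl47, Mrpl55 and Mrps2 also overlap a gene of the table on the opposite strand. Mrpl17, the most abundant member, stood at 164.86, 127.73 and 151.44 FPKM in CM_yap against 182.37, 176.76 and 172.93 FPKM in CM_neg (−0.27 ± 0.08, adjusted p = 0.00998). Mrpl12, the stalk protein that has also been found to bind mitochondrial RNA polymerase, averaged 66.7 ± 1.76 FPKM in CM_yap and 77.7 ± 5.51 FPKM in CM_neg, and did not pass the test (SD, n = 3; −0.22 ± 0.09, limma adjusted p = 0.061).

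**Figure D2:**
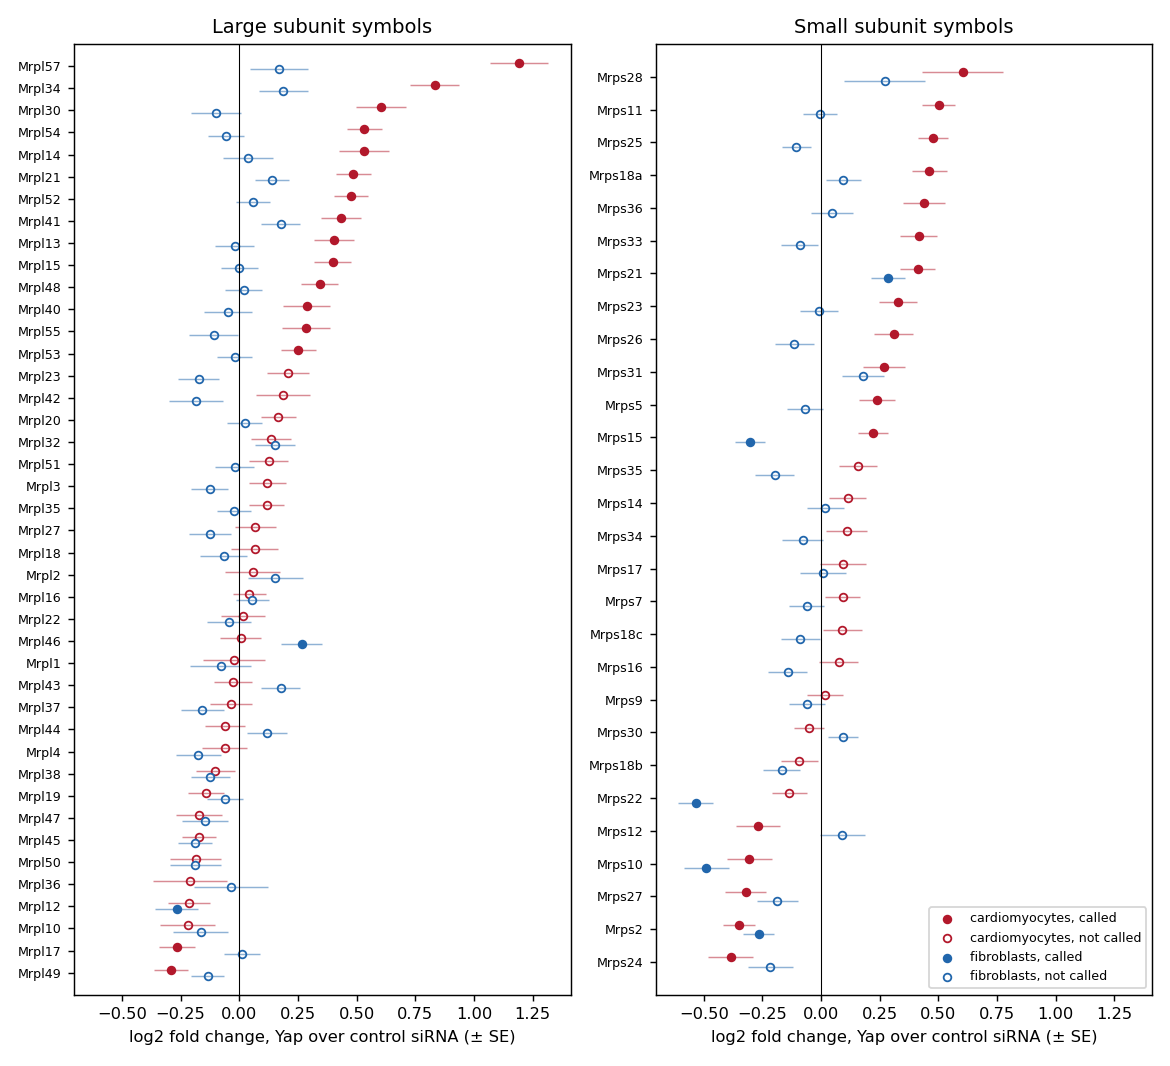
log2 fold change of Yap over control siRNA (x axis, ± SE) for each large subunit gene (left) and small subunit gene (right), ordered by the effect in cardiomyocytes (red); fibroblasts are blue, and filled points passed the test. In cardiomyocytes 26 genes rose and 7 fell, with Mrpl57 at 1.19 farthest out, and in fibroblasts 2 rose and 5 fell.

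Grouped by origin, 11 of 39 members with a bacterial counterpart rose and 5 fell in CM_yap, and 13 of 29 mitochondria-specific members rose and 2 fell. Mrps28 and Mrps36, both of which rose, were put in neither group. Mrps18a, which rose, and Mrps18b were counted as mitochondria-specific, but Mrps18c as having a bacterial counterpart. The counts depend on such placing. By place in the large subunit, 2 of 4 stalk genes rose (Mrpl53, Mrpl54), 3 of 7 genes of the central protuberance rose (Mrpl40, Mrpl48, Mrpl52) and none fell in either (limma; at an unadjusted p under 0.05, 1 stalk gene and 0 of the protuberance). Of the 5 genes at the rim of the exit tunnel, where the new chain leaves the ribosome, none passed the test (limma; at an unadjusted p under 0.05, 1 was higher and 1 lower), and their fold changes ran from −0.17 to 0.21. No test compared these groups.

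The table also gives each gene a KEGG alignment score, which grows with the length of the protein. This was looked at after the fold changes were seen. Across the 69 members with a score, Spearman's rho between the score and the fold change in cardiomyocytes was −0.35, and genes are not independent replicates. It was −0.10 across 9959 tested genes, −0.52 across 50 cytosolic ribosomal proteins and −0.45 across 49 respiratory chain subunits. Of the 23 members with the lowest scores (144 to 296), 11 rose and 3 fell. Of the middle 23 (302 to 418), 12 rose and 2 fell, and of the highest 23 (424 to 808), 2 rose and 2 fell. In fibroblasts rho was −0.24 across members and 0.03 across tested genes. For CM_neg against CF_neg it was 0.33 across members and 0.04 across tested genes. The member without a score is Mrpl57, which had the largest rise. The parts of transcript length, library preparation and FPKM in this relation were not tested.

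The second comparison asked the same in fibroblasts, where few members changed. Of the 70 genes, 2 rose, 5 fell and 63 did not pass the test, whereas 20.4% of all genes tested rose and 10.5% fell. The median over members was −0.06 (−0.04 large, −0.07 small), and that over all genes was 0.07. Of all calls, 66.1% were higher in CF_yap, against 54.8% with median-of-ratios and 46.2% with quantile scaling, where 1 member rose in each and 8 and 10 fell. Leaving out CF_neg 1, CF_neg 2, CF_yap 1 or CF_yap 2 left 1 rise, and leaving out CM_yap 2, which lends its spread to the fit, gave 8 falls.

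Markers of several cell types moved with this comparison too. The summed cardiomyocyte markers were lower, as given above, though 3 of 7 were called higher and 2 lower (median log2 fold change 0.22). The ranges of the summed fibroblast markers overlapped, but 4 of 8 were called higher and 0 lower (median 0.49). Quantile normalization gave 4 rises and 1 fall among these 8. The endothelial markers, none at 0, summed to 16.9 to 22.7 FPKM in CF_yap and 11.5 to 12.5 in CF_neg, and 4 of 8 rose. The smooth muscle markers, none at 0, summed to 170 to 172 FPKM in CF_yap and 184 to 204 in CF_neg. Of these 5, 2 rose and 3 fell. The leukocyte markers, none at 0, summed to 208 to 230 FPKM in CF_yap and 204 to 223 in CF_neg. The erythroid markers summed to 0.17 to 0.34 FPKM in CF_yap, where Hba-a1 and Alas2 were listed at 0 in every library, and to at most 0.94 FPKM in CF_neg. The part of cell makeup in the fibroblast member changes was not tested.

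Mrps22, a mitochondria-specific protein of the small subunit, fell most. It stood at 24.75, 27.44 and 25.19 FPKM in CF_yap against 35.64, 37.23 and 40.54 FPKM in CF_neg (−0.53 ± 0.08, adjusted p = 7.83e-05). Mrps10 stood at 20.87, 28.49 and 27.63 FPKM in CF_yap against 34.29, 36.2 and 37.94 FPKM in CF_neg (−0.49 ± 0.10, adjusted p = 0.00136). In both, the groups were clearly apart. Mrps15 stood at 25.89, 26.85 and 24.42 FPKM in CF_yap against 32.53, 29.98 and 33.29 FPKM in CF_neg (−0.30 ± 0.06, adjusted p = 0.00242). Mrps2 stood at 22.47, 21.0 and 23.83 FPKM in CF_yap against 26.46, 27.64 and 27.36 FPKM in CF_neg (−0.27 ± 0.07, adjusted p = 0.00671). Mrpl12 stood at 30.94, 35.26 and 27.25 FPKM in CF_yap against 36.8, 34.43 and 41.57 FPKM in CF_neg (−0.27 ± 0.09, adjusted p = 0.0358). Its groups overlapped, and the call was lost in 8 of 21 settings (adjusted p of 0.0509 to 0.174).

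The rises were those of Mrps21 and Mrpl46. Mrps21, with a bacterial counterpart, stood at 98.79, 102.17 and 90.3 FPKM in CF_yap against 75.21, 82.58 and 80.45 FPKM in CF_neg (0.29 ± 0.07, adjusted p = 0.00763). Mrpl46, of the central protuberance, stood at 16.78, 15.66 and 15.26 FPKM in CF_yap against 12.49, 11.9 and 14.92 FPKM in CF_neg (0.27 ± 0.09, adjusted p = 0.0301). The Mrpl46 groups nearly touched, and the call was lost in 6 of 21 settings (adjusted p of 0.0588 to 0.172).

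Setting the cell types side by side, which share no library in these comparisons, Mrps21 rose in both and Mrps2 and Mrps10 fell in both. Mrps15 rose in cardiomyocytes (45.2, 42.42 and 42.56 FPKM in CM_yap against 37.56, 37.45 and 36.08 FPKM in CM_neg) and fell in fibroblasts. In all, 24 members rose in cardiomyocytes and did not pass the test in fibroblasts, and 34 passed in neither. No such cross was counted over all genes tested, of which 49.8% were called in CM_yap and 30.9% in CF_yap. Whether these member counts are unusual was not tested. Of the 3 genes with lower-case symbols, mrpl9 rose in both cell types. It stood at 42.43, 41.02 and 37.13 FPKM in CM_yap against 27.16, 26.84 and 28.99 FPKM in CM_neg (0.52 ± 0.09, adjusted p = 0.000233). It stood at 47.89, 53.83 and 43.48 FPKM in CF_yap against 30.19, 29.91 and 36.27 FPKM in CF_neg (0.58 ± 0.09, adjusted p = 0.000204). mrpl24 fell in cardiomyocytes (−0.23 ± 0.07, adjusted p = 0.015), with −0.13 in fibroblasts (adjusted p = 0.178). mrpl11 passed in neither (0.15, adjusted p = 0.109, and 0.03, adjusted p = 0.83).

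The third comparison tested the difference itself, the Yap siRNA effect in cardiomyocytes minus that in fibroblasts. It was positive and passed the test in 23 members, negative in 1 and not called in 46, against 11.7% and 23.7% of all genes tested. The median difference was 0.15 over members and −0.13 over all genes, and 33.1% of all calls were positive. Median-of-ratios scaling put the median of all genes at −0.01 and quantile normalization at 0.00, with 51.8% and 51.0% of calls positive and 29 and 26 positive members.

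Mrpl57 differed most (1.02 ± 0.17, adjusted p = 0.000454). Its fibroblast values were 63.96, 74.32 and 66.98 FPKM in CF_yap against 69.6, 51.56 and 61.85 FPKM in CF_neg, and the groups overlapped (0.17 ± 0.12, adjusted p = 0.32). Mrpl30 followed (0.70 ± 0.15, adjusted p = 0.0026), with 26.85, 27.13 and 26.57 FPKM in CF_yap against 24.8, 32.79 and 29.49 FPKM in CF_neg. Mrpl34 (0.65 ± 0.15, adjusted p = 0.00383), Mrpl54 (0.59 ± 0.11, adjusted p = 0.000818) and Mrps25 (0.58 ± 0.09, adjusted p = 0.000214) differed next, and in fibroblasts all 3 had overlapping groups. Mrps15 differed by 0.52 ± 0.09 (adjusted p = 0.000535), with opposite calls in the 2 cell types. Mrps22, called lower in fibroblasts, differed by 0.40 ± 0.11 (adjusted p = 0.00948), with 57.99, 60.99 and 51.43 FPKM in CM_yap against 64.43, 62.65 and 59.89 FPKM in CM_neg. Mrps12 was the 1 negative difference (−0.36 ± 0.13, adjusted p = 0.0483), and that call was lost in 14 of 20 settings (adjusted p of 0.051 to 0.178). Without CF_neg 3, 2 members were called negative. For Mrps21, Mrps2 and Mrps10, called in both cell types, the difference did not pass (adjusted p of 0.363, 0.515 and 0.313).

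**Figure D3:**
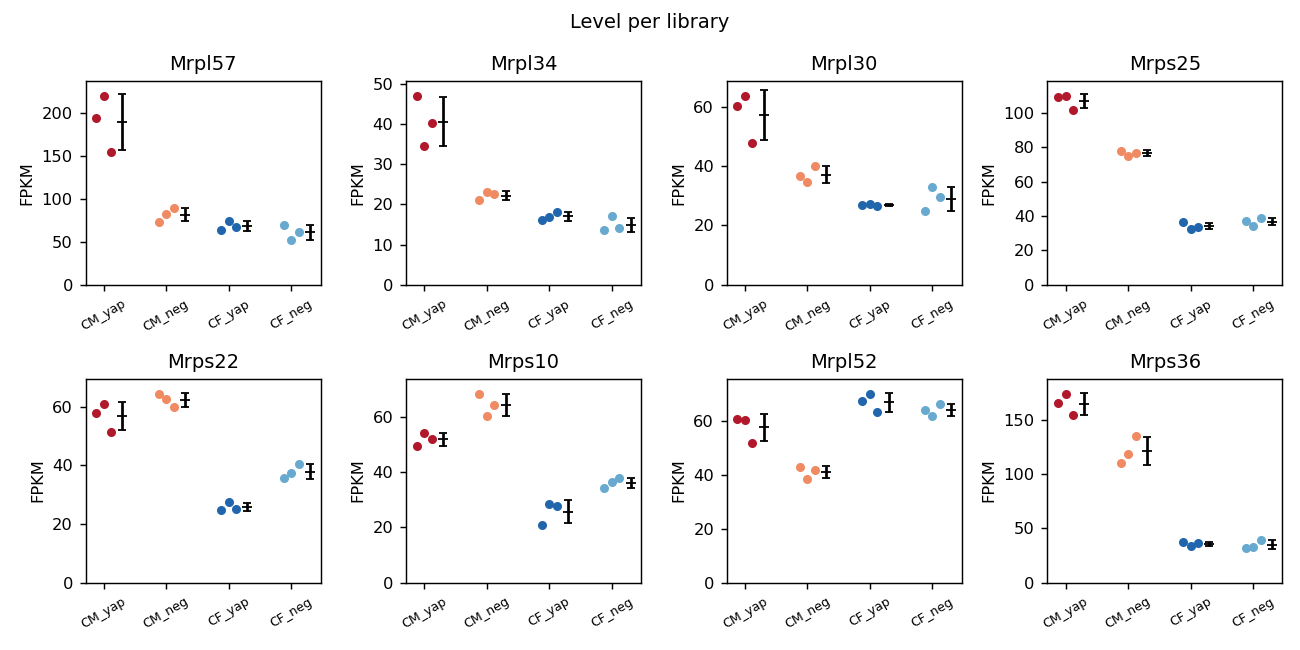
FPKM per library (points, with mean and SD of 3 libraries beside them) of 8 members in the 4 groups. Mrpl57, Mrpl34, Mrpl30 and Mrps25 stand higher in CM_yap than in CM_neg with overlapping fibroblast groups, Mrps22 and Mrps10 stand lower in CF_yap than in CF_neg, Mrpl52 is lower in CM_neg than in CF_neg, and Mrps36 is far higher in both cardiomyocyte groups.

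The fourth comparison set cardiomyocytes against fibroblasts under control siRNA. Nearly the whole family was higher in cardiomyocytes, with 64 of 70 genes higher, 2 lower and 4 not called, against 42.0% of all genes tested called higher and 26.4% lower. The median was 0.59 over members (0.57 large, 0.61 small) and 0.13 over all genes. Median-of-ratios scaling moved the median of all genes to 0.01 and quantile normalization to −0.06. The member medians were then 0.46 and 0.43, with 54 and 53 members higher and 3 lower in each. Of all calls, 61.4% were higher in cardiomyocytes, against 50.8% and 45.2% under these scalings. Other cell types' markers also differed between these groups. The endothelial markers summed to 286 to 338 FPKM in CM_neg against 11.5 to 12.5 in CF_neg, with all 8 called higher (median log2 fold change 3.56). The smooth muscle markers summed to 725 to 755 FPKM in CM_neg against 184 to 204 in CF_neg. Of these 5, however, 4 were called lower and 1 higher (median log2 fold change −1.65, from −2.97 to 4.20). The leukocyte markers summed to 113 to 145 FPKM in CM_neg against 204 to 223 in CF_neg. Of these 6, 4 were called lower and 1 higher. The erythroid markers summed to 57.2 to 72.0 FPKM in CM_neg against at most 0.94 in CF_neg. The part of these cell types in the member differences was not tested.

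Mrps36, of the alpha-ketoglutarate dehydrogenase complex, had the largest difference. It stood at 110.39, 118.06 and 135.33 FPKM in CM_neg against 31.55, 33.06 and 39.34 FPKM in CF_neg (1.78 ± 0.09, adjusted p = 5.9e-11). Among ribosomal proteins proper, Mrpl47 stood at 40.71, 35.68 and 42.26 FPKM in CM_neg against 16.15, 16.07 and 18.63 FPKM in CF_neg (1.18 ± 0.10, adjusted p = 3.03e-08). It overlaps Ndufb5, a complex I gene at 303 FPKM in CM_neg and 75.6 FPKM in CF_neg on average, on the opposite strand. Mrpl15 stood at 47.83, 47.04 and 47.82 FPKM in CM_neg against 20.13, 19.91 and 21.6 FPKM in CF_neg (1.17 ± 0.08, adjusted p = 2.27e-09). Mrpl16 stood at 37.32, 38.92 and 39.52 FPKM in CM_neg against 17.09, 16.75 and 19.01 FPKM in CF_neg (1.09 ± 0.07, adjusted p = 1.28e-09). Mrps25 (1.04 ± 0.06) and Mrpl12 (1.03 ± 0.09) came next, and Mrpl12 stood at 78.14, 72.01 and 83.01 FPKM in CM_neg against 36.8, 34.43 and 41.57 FPKM in CF_neg. In all of these the mean in CM_neg was more than 2-fold that in CF_neg.

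Mrpl52, of the central protuberance, went the other way. It stood at 43.05, 38.6 and 42.04 FPKM in CM_neg against 64.41, 61.96 and 66.58 FPKM in CF_neg (−0.63 ± 0.07, adjusted p = 1.56e-06). With Yap siRNA it rose in cardiomyocytes to 60.96, 60.52 and 51.86 FPKM in CM_yap (0.47 ± 0.07, adjusted p = 8.78e-05), and stood at 67.6, 70.29 and 63.43 FPKM in CF_yap. The other member called lower was Mrpl23, at 76.26, 77.71 and 92.78 FPKM in CM_neg against 90.28, 97.51 and 115.33 FPKM in CF_neg, and its groups overlapped. Without CF_neg 3 only 1 member was called lower. Mrpl10, Mrpl55, Mrps33 and Mrps28 were not called. Of the 5 most abundant members, Mrpl13, Mrps21 and Mrpl57 differed by 0.63, 0.54 and 0.42, and Mrpl17 and Mrpl54 by less. Mrpl17 stood at 182.37, 176.76 and 172.93 FPKM in CM_neg against 149.7, 149.49 and 158.27 FPKM in CF_neg (0.22 ± 0.08, adjusted p = 0.0216), and Mrpl54 differed by 0.23 ± 0.08 (adjusted p = 0.0151). Under both other scalings the calls of Mrpl17, Mrpl54, Mrpl30, Mrps15, Mrpl57 and Mrps12 were lost (adjusted p of 0.061 to 0.61).

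**Figure D4:**
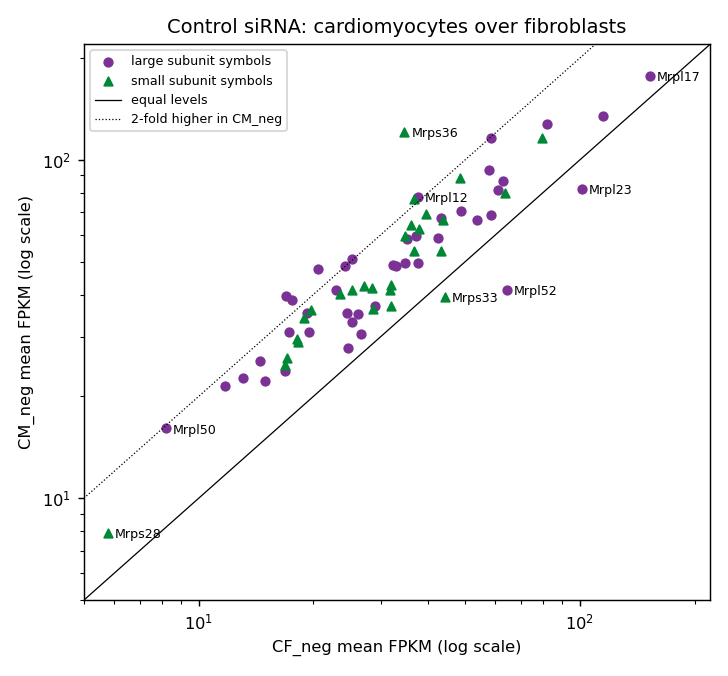
Mean FPKM of 3 libraries in CM_neg (y axis) against CF_neg (x axis), both log scales, for each large subunit gene (circles) and small subunit gene (triangles); the solid line marks equal levels and the dotted line 2-fold. 67 of 70 genes have a positive log2 fold change, Mrps36 lies farthest above the line and Mrpl52 farthest below it.

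Other genes of the mitoribosome and its pathway were counted from the same fit. Of 6 mitoribosomal proteins under other symbols, 3 rose in CM_yap and 2 fell. Aurkaip1 stood at 165.3, 173.67 and 154.87 FPKM in CM_yap against 100.08, 98.28 and 82.58 FPKM in CM_neg (0.81 ± 0.08, adjusted p = 1.52e-06). Gadd45gip1 rose by 0.67 and Ict1, a peptide release factor built into the large subunit, by 0.64. Ptcd3 (−0.42) and Dap3 (−0.33), both of the small subunit, fell. Dap3 stood at 34.33, 34.08 and 35.25 FPKM in CM_yap against 45.52, 43.27 and 42.17 FPKM in CM_neg. None of the 6 passed the test in fibroblasts (limma; 1 was lower at an unadjusted p under 0.05, and 1 fell under each of the other scalings). Median-of-ratios scaling gave 4 rises in CM_yap.

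Of 14 mitochondrial translation factors, 2 rose and 3 fell in CM_yap, and 2 rose and 2 fell in CF_yap, against 3 rises and 2 falls in CM_yap and 1 rise and 2 falls in CF_yap under each of the other scalings. Lrpprc, which stabilises mitochondrial messenger RNAs, fell in both cell types (−0.40 in CM_yap, −0.24 in CF_yap), and Oxa1l, which inserts new chains into the inner membrane, rose in both (0.35 and 0.38). The elongation factor gene Gfm1 fell in CM_yap (−0.42) and the initiation factor gene Mtif2 rose (0.49). Of 21 assembly factors, 3 rose and 4 fell in CM_yap, and 2 rose and 2 fell in CF_yap. Both other scalings gave 6 rises and 3 falls in CM_yap, and in CF_yap 1 rise with 2 falls (median-of-ratios) or 5 falls (quantile). Rbfa, a small subunit maturation factor, rose by 0.50 and Tfb1m, the methyltransferase of the small ribosomal RNA, fell by 0.52 on the log2 scale in CM_yap.

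Of 16 genes of mitochondrial transcription and its nuclear regulators, 3 rose and 4 fell in CM_yap, and 1 rose and 2 fell in CF_yap. Median-of-ratios scaling gave 5 rises and 3 falls in CM_yap and 1 rise and 3 falls in CF_yap, and quantile normalization 3 rises and 3 falls in CM_yap and 0 rises and 5 falls in CF_yap. Tfam, which packages mitochondrial DNA and takes part in its transcription, stood at 50.22, 49.82 and 48.63 FPKM in CM_yap against 40.64, 43.19 and 38.02 FPKM in CM_neg (0.28 ± 0.06, adjusted p = 0.00138). It stood at 29.41, 29.52 and 30.14 FPKM in CF_yap against 33.88, 32.82 and 34.46 FPKM in CF_neg (−0.18 ± 0.06, adjusted p = 0.0375). Gabpa, a subunit of the ETS factor GABP, fell in CM_yap (−0.27), as did Pprc1 (−0.53). Of 15 mitochondrial aminoacyl-tRNA synthetases, none rose (0 also at an unadjusted p under 0.05 in limma) and 6 fell in CM_yap, with Yars2 lowest (−0.54), but median-of-ratios scaling left 2 falls and quantile normalization 2 rises and 2 falls. In CF_yap 1 rose and 2 fell, the counts also with median-of-ratios scaling, but with quantile normalization 0 rose and 6 fell.

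Of 49 nuclear respiratory chain subunits, 24 rose and none fell in CM_yap (median 0.18), and none rose and 8 fell in CF_yap (median −0.08). In limma at an unadjusted p under 0.05, 0 were lower in CM_yap and 2 were higher in CF_yap. Median-of-ratios scaling gave 31 rises and 0 falls in CM_yap and 0 rises and 9 falls in CF_yap, and quantile normalization 23 rises and 2 falls in CM_yap and 2 rises and 8 falls in CF_yap. All 49 were higher in CM_neg than in CF_neg, with a median of 1.61 beside the 0.59 of the mitochondrial ribosomal protein genes. Of 50 cytosolic ribosomal proteins, 23 rose and 6 fell in CM_yap (median 0.17), none rose (0 also at an unadjusted p under 0.05 in limma) and 1 fell in CF_yap (median −0.05), and all 50 were lower in CM_neg than in CF_neg (median −0.76). Under quantile normalization the cytosolic counts were 16 rises and 13 falls in CM_yap, 1 rise and 0 falls in CF_yap, and 48 lower in CM_neg than in CF_neg. With median-of-ratios scaling 3 fell in CF_yap. The order in the cell type comparison was thus respiratory chain, mitochondrial ribosome, cytosolic ribosome, and this order held under both other scalings.

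Neighbouring genes were looked at after the values were seen. On GRCr8, 18 of 56 placed members start within 1000 bases of a gene on the other strand that runs away from them, and 15 of these neighbours were tested. In CM_yap 4 neighbours rose and 3 fell, against 21.0% and 28.7% of all genes tested. Mrps11 and Mrpl46 are such a pair, with starts 234 bases apart. Each was counted as the neighbour of the other, and Mrps11 is among the 4 rises. Mrps11 stood at 58.73, 63.51 and 53.93 FPKM in CM_yap against 41.61, 40.18 and 41.55 FPKM in CM_neg, whereas Mrpl46 stood at 23.69, 22.54 and 21.82 FPKM in CM_yap against 24.3, 22.51 and 21.03 FPKM in CM_neg. In fibroblasts Mrpl46 rose (0.27) and Mrps11 averaged 31.7 ± 2.07 FPKM in CF_yap and 31.8 ± 1.10 FPKM in CF_neg (SD, n = 3). Mrpl49 fell in CM_yap and its neighbour Fau, a cytosolic ribosomal protein gene 186 bases away, rose (0.48).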

How the data were processed

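Per the file headers, the deposited values are FPKM made by the authors, 1 column per library. HISAT, Bowtie2 and rn6 are named in the submitters' processing notes; for versions, quantification tool, annotation, strand use and read counts, nothing is given in the sources used here. Among low FPKM values, 26.6% of 15469 ratios to a gene's lowest value above 0 lay within 0.1 of a whole number, against 20% without steps, too few to recover whole reads, so no count test was run and no counting error can be given. In 31 lines the symbol was blank or a date, and genes were followed by ID.

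The 11302 genes averaging 0.5 FPKM or more across the 12 libraries were analysed as log2(FPKM + 1), which understates changes of low genes. All 4 groups of 3 were fitted together in limma 3.58.1 (lmFit, eBayes with a variance trend; R 4.3.3), with Benjamini-Hochberg adjustment over all genes tested, two-sided, called at 0.05; values after ± without a unit are limma's SE on the log2 scale. An exact permutation test of 3 against 3 cannot give a p below 0.1. Libraries of a group may be technical repeats, and p-values then measure that spread alone; no 2 libraries were identical. Python 3.11.15, pandas 2.3.3 and matplotlib 3.10.9 were used for tables and plots.

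The members, lists and tests were chosen with earlier results of these data known; the motifs, alignment scores and neighbouring genes were examined after the values were seen, and the shorter NRF1 letters replaced the longer form then. Named members were up to 6 called rises and 6 called falls with groups that do not overlap per comparison (for the difference, called alone), the 5 most and 3 least abundant, Mrpl12, Mrps36, Mrps18a, Mrps30 and Mrpl57 for their roles, and up to 3 genes each way per list; the others were named after their values were seen. RefSeq IDs matched all 70 members, and 69 symbols were the same. Alternatives were pseudocounts of 0.1 and 5, quantile normalization, median-of-ratios scaling, a 5 FPKM filter or none, a replicate block, no variance trend, only the groups compared, the subunit swap of Mrps30 and Mrps18a, and each library left out in turn.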

Additional observations from a re-analysis of the deposited data

Results flagged for a closer look

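Results are given here because the Yap siRNA effect in cardiomyocytes differed from that in fibroblasts by a test of the difference itself (limma, adjusted p under 0.05 over all genes tested). The values are log2 fold changes in cardiomyocytes minus those in fibroblasts. The lead members were Mrpl57 (1.02), Mrpl30 (0.70), Mrpl34 (0.65), Mrpl54 (0.59), Mrps25 (0.58), Mrps15 (0.52), Mrps33 (0.51), Mrps11 (0.51) and Mrpl14 (0.50). In the middle were Mrps26 (0.42), Mrpl13 (0.42), Mrpl52 (0.42), Mrps22 (0.40), Mrpl15 (0.40), Mrps36 (0.40), Mrpl55 (0.39) and Mrpl23 (0.38). Lowest of the positive ones were Mrps18a (0.37), Mrps35 (0.36), Mrpl21 (0.35), Mrps23 (0.33), Mrpl48 (0.32) and Mrps5 (0.31). Mrps12 (-0.36) was the 1 negative difference.

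In Mrps22 the difference came with a fold change of -0.13 in cardiomyocytes and -0.53 in fibroblasts, and in Mrps15 with 0.22 and -0.30. Mrps35 and Mrpl23 passed the test of the difference without passing it in either cell type. Mrpl14 lost the call in 4 settings and Mrps36 in 5, each of them a library left out. The range of adjusted p over the settings was 0.0064 to 0.056 for Mrpl14 and 0.00834 to 0.0683 for Mrps36. Mrps33, Mrps11, Mrps26, Mrpl55, Mrpl23, Mrps35, Mrpl21, Mrps23, Mrpl48 and Mrps5 were not followed setting by setting. In the main fit Mrpl55 passed narrowly (limma adjusted p = 0.049), as did Mrps5 (0.0402). Fewer positive differences passed with some libraries left out, as given below.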

How the results depend on the processing

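No result changed direction past the test under the alternatives run. Of 71 results for named genes, 56 kept their call in every setting run, and the other 15 lost it in at least 1. Rises with Yap siRNA in fibroblasts numbered 2 in the main fit, 1 with either median-of-ratios or quantile scaling, and 1 to 3 with a library left out. Falls there numbered 5 in the main fit, 8 under median-of-ratios scaling, 10 under quantile normalization, 8 with only the groups compared, and 4 to 8 with a library left out. The 1 negative difference between cell types became 0 with a pseudocount of 0.1, no filter, median-of-ratios scaling, no variance trend or the replicate block. With a library left out it numbered 0 to 2. Quantile normalization also gave 1 negative difference, but in a member other than Mrps12, which did not pass there (limma adjusted p = 0.11). Members lower in CM_neg than in CF_neg numbered 2, and 1 to 3 with a library left out.

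With a library left out, rises in cardiomyocytes numbered 21 to 30, falls 5 to 8, positive differences 16 to 24, and members higher in CM_neg than in CF_neg 59 to 64. Placing Mrps18a and Mrps30 in the large subunit gave 15 rises and 2 falls there in CM_yap and 11 rises and 5 falls in the small subunit. Libraries with the same replicate number did not deviate together (correlations of 0.144, 0.037 and 0.086 in cardiomyocytes and -0.002, -0.086 and -0.123 in fibroblasts), so the numbers were not taken as pairs. With the replicate block, 26 members rose and 7 fell in cardiomyocytes, 2 rose and 4 fell in fibroblasts, 21 positive and 0 negative differences were called, and 64 members were higher and 2 lower in CM_neg than in CF_neg. The causes were not tested. With unknown depth, changes of low members such as Mrps28 cannot be set against counting error.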
